A study of Mus musculus with 9 samples.

Results

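The axonemal dynein heavy chains studied here are 10 genes, Dnah1, Dnah2, Dnah3, Dnah6, Dnah7a, Dnah8, Dnah10, Dnah12, Dnah14 and Dnah17. They were chosen by name, through the Ensembl gene IDs that carry these symbols in GENCODE M21, and make up 10 of the 23074 genes in the table. Testes of 5 wild type and 4 Rfx2-/- mice aged 29 to 30 days after birth were freed of their capsule, and total RNA of each animal was sequenced as 1 RNA-seq library. The targeted gene encodes RFX2, a transcription factor whose family binds the X-box, a motif found in the promoters of many cilia genes. All animals were on a mixed background of C57BL/6, 129/Sv and FVB/N. In the Rfx2-/- mice an exon that encodes much of the DNA binding domain had been flanked by loxP sites and removed with Cre, so that every cell lacks it. The wild type animals carry the intact gene. The tissue is whole testis, so a difference in the number of spermatids and a difference in the RNA content of each spermatid cannot be told apart.

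Dyneins are motors that walk along microtubules, and the heavy chain is the subunit that binds the microtubule and hydrolyses ATP. In a sperm flagellum the outer dynein arms mainly set the beat frequency and power, and the inner arms mainly set the shape of the bend. DNAH8 and DNAH17 are the heavy chains of the outer arms of sperm, while DNAH5, DNAH9 and DNAH11 serve the outer arms of airway and other motile cilia. DNAH2 and DNAH10 form the pair of heavy chains of a double-headed inner arm, called I1 or f, and DNAH1, DNAH3, DNAH6, DNAH7 and DNAH12 are single-headed inner arm chains. DNAH14 is grouped here with the inner arms, although its place in the axoneme is less well known. Their mRNAs accumulate in late meiotic and haploid germ cells.

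Sequencing gave between 13574764 and 15193330 counts for 8 of the libraries and 28800855 for Rfx2-/- replicate 1. Rfx2 itself had 470.9 to 624 CPM (reads of a gene relative to its library, after TMM scaling) in wild type and 61.5 to 199.2 CPM in Rfx2-/- testes, with no overlap. The test covered 15613 genes and called 575 of them lower and 129 higher without RFX2, where a call is an adjusted p of at most 0.01 in the quasi-likelihood test of edgeR together with a change of more than 2-fold. One library stood furthest apart. Rfx2-/- replicate 2 had few reads from long genes. Its median log2 difference from the wild type mean was 0.59 for genes whose exons span less than 2 kb. It was -0.92 for the 1167 genes over 8 kb. In the same order, Rfx2-/- replicate 1 had a smaller pattern the other way (-0.11 and 0.17). Rfx2-/- replicate 4 had a smaller pattern the same way (0.18 and -0.19). All heavy chains have between 12009 and 17617 bases of merged exons. The fold changes of the chains and of the gene lists are therefore given with and without Rfx2-/- replicate 2.

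The promoters of the chains whose mRNA was called lower, and of the I1 partner chain that was not, are shown first because the study concerns an X-box binding factor. Promoters were taken from RefSeq (GRCm38.p6, 250 bases before to 50 after the start) and were present for 9 of the 10 genes, Dnah3 being the exception. They were searched, on both strands, for the 2 arms of the X-box, the half-sites GTTGCC and GGCAAC, which are reverse complements of each other and were allowed a spacer of 0 to 3 bases between them. The spacer was allowed after the Dnah6 promoter had been read. Positions are counted from the RefSeq start, and each window of 100 bases ends upstream of the RefSeq and the GENCODE starts. Capitals mark the best spaced match in each window.
Dnah10 (GRCm38.p6 chr5:124724985-124725084, plus strand, -100 to -1): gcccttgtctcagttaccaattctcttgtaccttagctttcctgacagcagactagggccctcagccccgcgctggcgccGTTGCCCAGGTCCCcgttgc
Dnah6 (GRCm38.p6 chr6:73221652-73221751, minus strand, -120 to -21): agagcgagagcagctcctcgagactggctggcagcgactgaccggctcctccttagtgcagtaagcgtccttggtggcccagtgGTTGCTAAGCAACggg
Dnah2 (GRCm38.p6 chr11:69549111-69549210, minus strand, -102 to -3): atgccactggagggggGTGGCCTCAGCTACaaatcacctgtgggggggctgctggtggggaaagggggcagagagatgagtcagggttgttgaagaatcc
In Dnah6 the match was GTTGCTAAGCAAC at -36 to -24, with 2 mismatches to the half-sites around a spacer of 1 base. At most 2 mismatches were found in 6.37% of the 32851 promoters, and among the 9 chains in Dnah6 and Dnah7a. Of the other heavy chains Dnah7b, Dnah7c and Dnah9 also had a match with 2 mismatches and, like Dnah6, a spacer of 1 base. In Dnah10 and in Dnah2 the best spaced match had 3 mismatches and a spacer of 2 bases. At most 3 mismatches were found in 36.2% of promoters. The Dnah10 promoter held 2 exact half-sites, the one in capitals above and a second one just downstream of the start. At least 1 exact half-site was present in 12.5% of promoters, and among these 9 genes only in Dnah10 and Dnah7a. The second half-site is shown in capitals within 30 bases around it (plus strand).
Dnah10 (GRCm38.p6 chr5:124725083-124725112, -2 to 28): gctagggtcgccGTTGCCacggacgcccgc
These matches describe letters in a window and not bound sites.

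Of the 10 heavy chains, Dnah10 and Dnah6 were called lower in Rfx2-/- testes, and 0 were called higher. The background was 3.68% of all genes tested called lower, 3.34% among genes over 8 kb, and 0.826% of all genes called higher. Over the 10 chains the median log2 fold change was -0.70, compared with 0.03 over all genes tested and -0.13 over genes over 8 kb. Without Rfx2-/- replicate 2 the median of the chains was -0.41. It was then 0.04 both over all genes tested and over genes over 8 kb. The calls were again Dnah10 and Dnah6, against 4.01% of genes called lower. The same pair was called with the length trend removed (background 4.18%), with length and GC trends removed (4.12%), by DESeq2 (4.10%), by limma voom (4.34%) and at an unadjusted p (4.80%), whereas the test against 2-fold (1.74%) called Dnah10 alone.

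**Figure D1:**
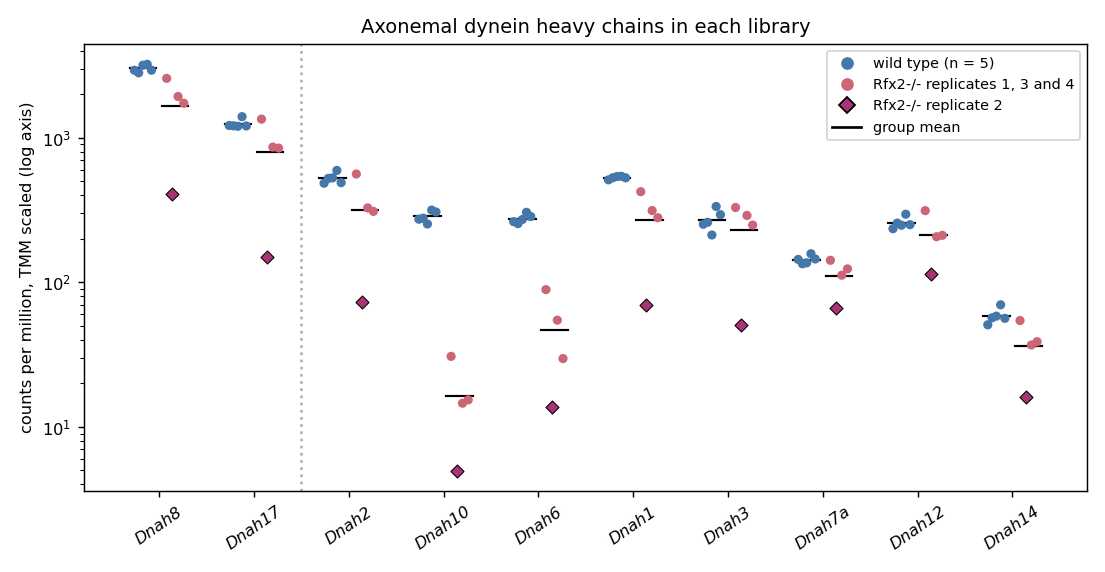
Level of each of the 10 heavy chain mRNAs in every library, in CPM on a log axis, with wild type in blue, Rfx2-/- in red and Rfx2-/- replicate 2 as a diamond; bars are group means and the dotted line separates outer arm chains (left) from the others. Dnah10 and Dnah6 fall far below wild type in all 4 Rfx2-/- libraries, and the diamond is the lowest point of every chain.

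Dnah10 (ENSMUSG00000038011, GRCm38 chromosome 5, 124725085 to 124834308, plus strand, 79 merged exons) encodes one heavy chain of the I1 inner arm. It had 273, 278, 253, 316 and 307 CPM in wild type replicates 1 to 5 and 30.8, 4.95, 14.6 and 15.4 CPM in Rfx2-/- replicates 1 to 4. The highest Rfx2-/- library was thus far below the lowest wild type library. It averaged 285 ± 25.7 CPM (SD, n = 5) with RFX2 and 16.4 ± 10.7 CPM (SD, n = 4) without it, which is 5.75% of the former. Its log2 fold change was -4.11 (95% interval -5.01 to -3.21, edgeR adjusted p 3.21e-05). It was -3.80 without Rfx2-/- replicate 2, which has 74 reads of this gene, and -3.85 with trends of length and GC content removed.

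Dnah2 (ENSMUSG00000005237, chromosome 11, 69420809 to 69549110, minus strand) encodes the other heavy chain of the same arm. Its levels were 485, 524, 528, 594 and 489 CPM in wild type and 562, 73.3, 327 and 309.5 CPM in Rfx2-/- testes. Rfx2-/- replicate 1 lay within the wild type range, so the groups overlapped, and the other 3 Rfx2-/- libraries lay below it. With the length trend removed, replicate 1 was at -0.094 on the log2 scale, just below the lowest wild type value of -0.082. The change of -0.72 on the log2 scale (95% interval -1.59 to 0.15, edgeR adjusted p 0.259) was not called. It was -0.39 without Rfx2-/- replicate 2 (edgeR adjusted p 0.171).

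Both genes are alike in merged exon length (14038 and 13950 bases) and in GC content (54.0% and 53.5%), and they were compared as a ratio within each library. The log2 ratio of Dnah10 to Dnah2 counts was -0.83, -0.91, -1.06, -0.91 and -0.67 in wild type and -4.19, -3.85, -4.48 and -4.32 in Rfx2-/- replicates 1 to 4. The groups were far apart, and Rfx2-/- replicate 2 stood with the other Rfx2-/- libraries. The difference, Rfx2-/- minus wild type, was -3.33 with an exact two-sided permutation p of 0.00794, the smallest that 5 against 4 libraries can give, and 0.0159 after adjustment over the 2 ratios tested. The pair was chosen with the levels of both genes known, so this p is no independent support for the difference. The difference was -3.45 when Rfx2-/- replicate 2 was left out. Per kb of exons, Dnah10 stood at 47.6% to 62.3% of Dnah2 in wild type and at 4.43% to 6.71% in Rfx2-/- testes.

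Dnah6 (ENSMUSG00000052861, chromosome 6, 73017606 to 73221651, minus strand, 77 merged exons) encodes a single-headed inner arm chain. It had 263, 255, 272, 305 and 285 CPM in wild type and 89.04, 13.8, 54.7 and 29.7 CPM in Rfx2-/- testes. The groups did not overlap. The log2 differences from the wild type mean were -1.63, -4.30, -2.33 and -3.21 in Rfx2-/- replicates 1 to 4. The log2 fold change was -2.55 (95% interval -3.46 to -1.64, edgeR adjusted p 0.00159), and the Rfx2-/- mean was 17.0% of wild type. Without Rfx2-/- replicate 2 it was -2.25 (edgeR adjusted p 3.74e-04). Its call was lost when the test was made against the 2-fold limit itself (edgeR adjusted p 0.0162) and without Rfx2-/- replicate 4 (edgeR adjusted p 0.0108).

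**Figure D2:**
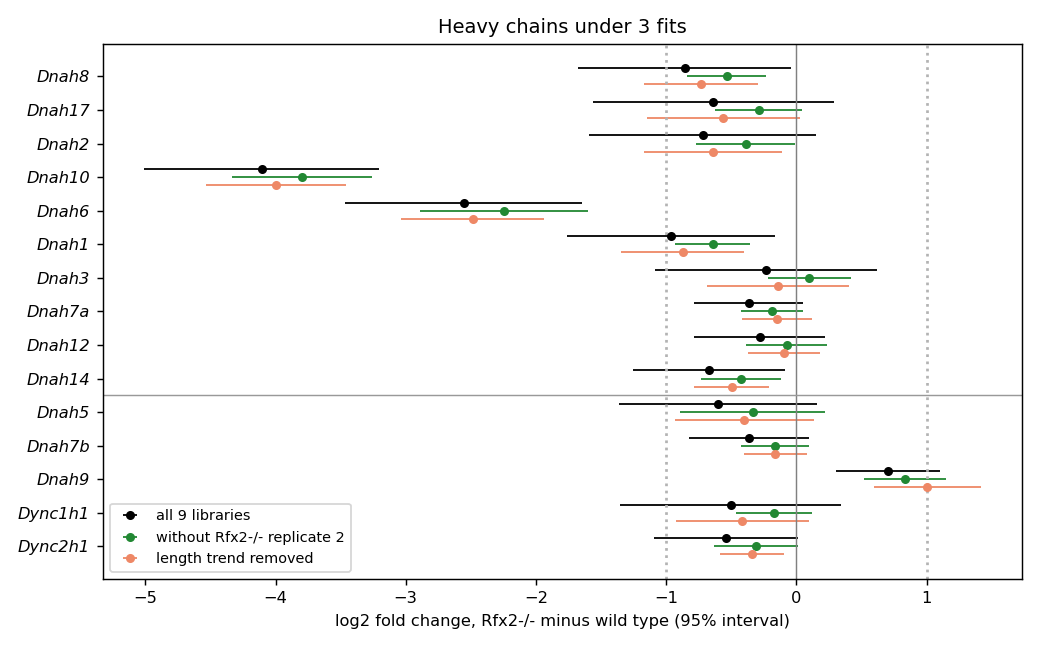
Log2 fold change (Rfx2-/- minus wild type) with its 95% interval for the 10 chains and, under the line, other dynein heavy chains, fitted with all 9 libraries (black), without Rfx2-/- replicate 2 (green) and with the length trend removed (orange). The intervals of Dnah10 and Dnah6 lie below the dotted 2-fold line in all 3 fits, and those of the other 8 chains reach above it in each.

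Dnah8 and Dnah17, the outer arm chains of sperm, were the most abundant of the 10. Per kb of exons Dnah8 stood at 171 ± 9.98 CPM and Dnah17 at 82.6 ± 5.66 CPM (SD, n = 5) in wild type, and their wild type ranges did not meet. Dnah8 (chromosome 17, 30624354 to 30877365) had 2929, 2812, 3176, 3220.45 and 2934 CPM in wild type and 2575, 409.7, 1930.2 and 1734 CPM in Rfx2-/- testes, with no overlap. The fitted log2 value was -0.86 (95% interval -1.68 to -0.04, edgeR adjusted p 0.164), and without Rfx2-/- replicate 2 it was -0.53 (95% interval -0.84 to -0.23, edgeR adjusted p 0.0202). Neither value passed the call.

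Dnah17 (chromosome 11, 118021723 to 118130634) had 1216, 1209.6, 1200.8, 1399 and 1207 CPM in wild type and 1346, 149.6, 862 and 848 CPM in Rfx2-/- testes. Rfx2-/- replicate 1 was above 4 of the 5 wild type libraries, and the groups overlapped. The fitted change was -0.64 (95% interval -1.56 to 0.29, edgeR adjusted p 0.347), and -0.29 without Rfx2-/- replicate 2 (edgeR adjusted p 0.243). The log2 ratio of Dnah8 to Dnah17 was 1.27 ± 0.08 (SD, n = 5) in wild type and 1.15 ± 0.22 (SD, n = 4) in Rfx2-/- testes, a difference of -0.13 (exact two-sided permutation p 0.254, also after adjustment over the 2 ratios). Without Rfx2-/- replicate 2 the difference was -0.23, with an exact p of 0.0179 that is the smallest that 5 against 3 libraries can give. That library had the highest ratio of the Rfx2-/- group (1.45). This pair too was chosen with earlier results known, so the p is no independent support for a difference.

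**Figure D3:**
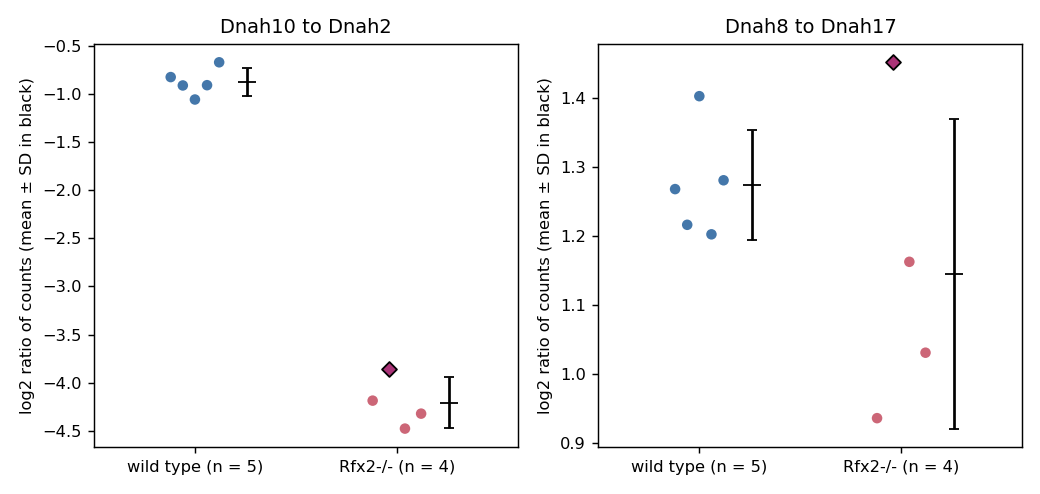
Log2 ratio of the counts of the pair of I1 inner arm chains (left) and of the outer arm chains (right) in each library, with the mean and SD of each genotype in black and Rfx2-/- replicate 2 as a diamond. The Dnah10 to Dnah2 ratio separates the genotypes, with a difference of -3.33, and the Dnah8 to Dnah17 ratio overlaps between them through replicate 2.

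Among the other single-headed inner arm chains Dnah1, whose loss in humans and mice impairs sperm motility, had the lowest fold change. It had 511.5, 529, 539.8, 541 and 528 CPM in wild type, the narrowest spread of the 10 chains with a coefficient of variation of 2.24%, and 424, 69.3, 313.5 and 279.8 CPM in Rfx2-/- testes. The groups did not overlap. The log2 fold change was -0.96 (95% interval -1.76 to -0.16, edgeR adjusted p 0.115). Without Rfx2-/- replicate 2 it was -0.64 with an edgeR adjusted p of 0.00488, under the p limit but not past 2-fold.

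Dnah3 had 252, 260.3, 212.6, 335 and 294 CPM in wild type and 329, 50.95, 290.2 and 249.1 CPM in Rfx2-/- testes. Apart from replicate 2, every Rfx2-/- library lay inside the wild type range. Its log2 fold change was -0.24 (edgeR adjusted p 0.725) and turned to 0.10 without that library (95% interval -0.22 to 0.42, edgeR adjusted p 0.713). Dnah3 overlaps exons of Lyrm1 over 1506 bases. Reads over exons of different genes were left out, so reads of such stretches could be lost. Among the other chains the largest overlap with exons of other genes was 650 bases, for Dnah8.

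Dnah12 had 235 to 296 CPM in wild type and 313, 115, 207 and 211 CPM in Rfx2-/- testes. Dnah7a had 134 to 158 CPM in wild type and 142, 66.7, 112 and 124 CPM in Rfx2-/- testes. Dnah14 was the least abundant chain, with 50.8 to 69.9 CPM in wild type and 54.4, 16.05, 36.9 and 38.9 CPM in Rfx2-/- testes. In all of them Rfx2-/- replicate 1 reached the wild type range or was above it. With the length trend removed, Dnah14 in replicate 1 was at -0.29 on the log2 scale, below the lowest wild type value of -0.12. Their log2 fold changes were -0.28 for Dnah12, -0.37 for Dnah7a and -0.67 for Dnah14, and without Rfx2-/- replicate 2 they were -0.08, -0.19 and -0.42, none of them called. Dnah7a shares 38.6% of its 50-base words with Dnah7b and Dnah7c, so its counts are uncertain.

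Complete separation below wild type was seen for 4 of the 10 chains, Dnah10, Dnah6, Dnah1 and Dnah8, against a background of 9.70% of genes tested and 9.94% of genes over 8 kb. The same 4 chains were separated without Rfx2-/- replicate 2, against 11.6% of genes tested and 10.4% of genes over 8 kb. With the length trend removed, Dnah2 and Dnah14 also lay below wild type in every Rfx2-/- library. No background share was counted for that setting.

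The sum of the 10 chains, in CPM per kb, was 413.4 to 473 in wild type and 383, 65.1, 269.6 and 250.4 in Rfx2-/- replicates 1 to 4. Within this sum Dnah8 made up 39.7% ± 1.37 (SD, n = 5) in wild type and 38.5% ± 2.08 (SD, n = 4) in Rfx2-/- testes. Dnah10 fell from 4.71% ± 0.34 to 0.484% ± 0.09, and Dnah6 from 5.05% ± 0.16 to 1.51% ± 0.40. With Rfx2-/- replicate 2 left out the shares in Rfx2-/- testes were 39.4% ± 1.23 for Dnah8, 0.465% ± 0.10 for Dnah10 and 1.46% ± 0.47 for Dnah6 (SD, n = 3). The shares of Dnah3, Dnah7a and Dnah12 were higher in every Rfx2-/- library than in every wild type library. Their wild type means were 4.47%, 2.72% and 4.96%. In Rfx2-/- testes without replicate 2 they were 6.97%, 3.49% and 6.74%. Shares add up to the whole and are not independent of one another. The reason for these higher shares was not tested. Outer arm chains made up 58.0% to 60.4% of the sum in wild type, 51.0% in Rfx2-/- replicate 2 and 61.5% to 61.8% in the other Rfx2-/- libraries.

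The loss of heavy chain counts in Rfx2-/- replicate 2 was not uniform. Compared with the mean of the other 3 Rfx2-/- libraries, it was least for Dnah7a, with a log2 difference of -0.91, and for Dnah12, with -1.06. It was greatest for Dnah17, with -2.73. The chains with lower GC content in their longest transcript, Dnah12 (41.9%), Dnah14 (43.95%) and Dnah7a (44.7%), had differences of -1.41 to -0.91, and Dnah1, Dnah10, Dnah2 and Dnah17, with 53.4% to 55.0% GC, had differences of -2.73 to -1.92. Dnah3 and Dnah8, with 47.9% and 48.0% GC, had differences of -2.49 and -2.32, larger than those of Dnah1 and Dnah10. Dnah6, with 47.3% GC, was at -1.91. Across the 10 chains Pearson's r between GC content and this difference was -0.78, and r with the log2 of exon length was -0.64. Over all 16 dynein heavy chains measured r with GC content was -0.55, with Dnah9 (51.0% GC) at -0.58 and Dnah11 (48.0% GC) at -3.28. Over the 1167 genes over 8 kb it was -0.59. These are descriptions across genes of one library. Genes over 8 kb with a GC content of 36% to 40% had a median difference of 0.10, and those of 56% to 62% a median of -1.65.

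**Figure D4:**
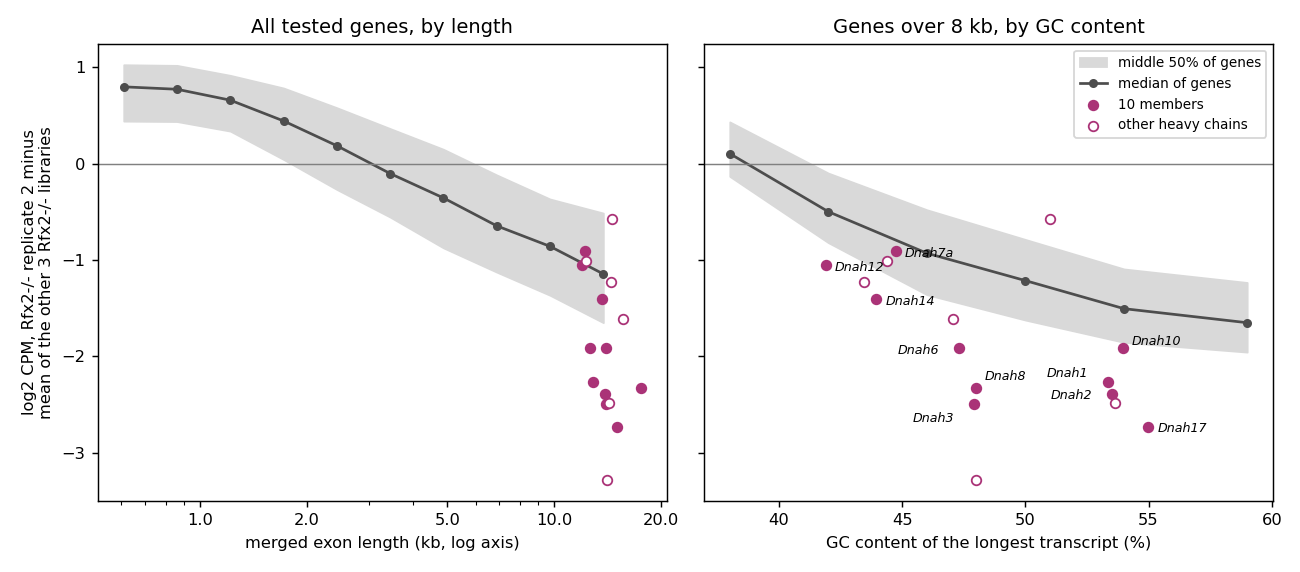
Log2 CPM in Rfx2-/- replicate 2 minus the mean of the other 3 Rfx2-/- libraries, plotted against merged exon length for all tested genes (left, log axis) and against GC content for genes over 8 kb (right); the line is the median of genes per bin, the band their middle 50%, filled points the 10 chains and open points other dynein heavy chains. The median falls from 0.80 for the shortest genes to -1.14 for the longest bin, and most chains lie under the band of genes of like length or GC content.

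With the trends of both length and GC content removed from every library, an alternative added after seeing the data, Dnah10 (-3.85) and Dnah6 (-2.45) were still the chains called. Dnah1 was at -0.74 (edgeR adjusted p 0.0106) and Dnah8 at -0.67 (edgeR adjusted p 0.0250), neither past 2-fold. The median of the 10 chains was -0.53, and that of all genes tested 0.04. Dnah17 stood at -0.42 and Dnah2 at -0.51, with edgeR adjusted p of 0.231 and 0.103.

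Of the axonemal chains outside the 10, Dnah9, an outer arm chain of motile cilia, had higher values without RFX2. It had 15.6, 13.3, 13.03, 17.5 and 10.99 CPM in wild type and 26.6, 16.6, 22.1 and 26.4 CPM in Rfx2-/- testes. Rfx2-/- replicate 2 lay within the wild type range and the other 3 above it. The log2 fold change was 0.70 (95% interval 0.31 to 1.10, edgeR adjusted p 0.0280), which was not called. Without Rfx2-/- replicate 2 the groups did not overlap and the value was 0.83 (edgeR adjusted p 0.00143), under the p limit but not past 2-fold. With the length trend removed it was 1.01 (edgeR adjusted p 0.00299) and was called higher, against a background of 0.929%.

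Dnah5, with 4.26 to 10.99 CPM in wild type and 1.81 to 5.94 CPM in Rfx2-/- testes, overlapped between the genotypes. Dnah11 had 0.936 to 8.21 CPM in wild type and 8.20, 0.134, 1.29 and 1.24 CPM in Rfx2-/- testes, where 0.134 CPM is 2 reads, under the floor of 3 counts. Dnah7b, a near copy of Dnah7a, had a log2 fold change of -0.36 (edgeR adjusted p 0.279), and of -0.17 without Rfx2-/- replicate 2. It shares 30.05% of its 50-base words with Dnah7c and Dnah7a, so its counts are uncertain too. Dync2h1, the motor of retrograde transport inside cilia, had -0.54 (edgeR adjusted p 0.192), and -0.31 without that library. Dync1h1, the heavy chain of cytoplasmic dynein 1, had -0.51 (edgeR adjusted p 0.416) and -0.17 without it. The expression of Dnah7c was not analysed here.

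The other subunits and partners of the dynein arms were counted in lists written from general knowledge. The lists were chosen with earlier results of these data known, so a high count is no independent support for an effect on a list. Their counts stand against the 3.68% of all genes called lower and the 0.826% called higher. Of 13 intermediate and light chains 3 were called lower and 0 higher. Dnaic2, an intermediate chain of the outer arm, had 113 ± 18.3 CPM (SD, n = 5) with RFX2 and 1.04 ± 0.30 CPM (SD, n = 4) without it, with a log2 fold change of -6.73 (edgeR adjusted p 5.28e-09). Dnali1, a light chain of single-headed inner arms, was at -1.66 (edgeR adjusted p 1.20e-05) and Wdr78, an intermediate chain linked to the I1 arm, at -1.49 (edgeR adjusted p 0.00160). The median of this list was -0.06, and -0.25 without Rfx2-/- replicate 2, where the same 3 genes were called.

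Of 16 cytoplasmic assembly factors, which fold and preassemble the arms, 1 was called lower and 0 higher, a share near the background. This was Zmynd10, with 437 ± 14.7 CPM (SD, n = 5) with RFX2, 168 ± 36.5 CPM (SD, n = 4) without it and a log2 fold change of -1.38 (edgeR adjusted p 1.22e-04). The median of the list was -0.29, and -0.33 without Rfx2-/- replicate 2. Pih1d3 (-0.81) was also called without Rfx2-/- replicate 2 (-1.18) and with the length trend removed (-1.02). Of the 8 genes listed as docking and ruler genes, which anchor and space the arms, 4 were called lower and 0 higher. The median of this list was -0.92, and -0.86 without Rfx2-/- replicate 2. The count and the median include Drc1, which belongs to the nexin link and is neither a docking nor a ruler gene. The called genes were the ruler gene Ccdc40 (-3.86), the nexin link gene Drc1 (-6.19), the docking gene Armc4 (-2.48) and the docking gene Ttc25 (-1.13). Ttc25 was not called without Rfx2-/- replicate 2 (-0.97, edgeR adjusted p 2.10e-04).

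The genes most like Dnah10 over the 9 libraries, by Pearson's r of log2 CPM, were Ccdc65 (0.998), Cfap46 (0.998), Ttll6 (0.997), Cep131 (0.997) and Slc6a7 (0.995). These values include the difference between the genotypes. Since the genes were chosen by likeness to Dnah10 over both genotypes, their lower levels in Rfx2-/- testes follow from the choice. All of them were called lower, with log2 fold changes of -2.99, -3.33, -3.44, -2.24 and -3.95. Within the 5 wild type libraries the mean of the 10 chains was followed most closely by Phf14, Nek3, Adgb, Zmym4 and Abcf1 (r of 0.994 to 0.9996), of which Adgb (-1.92, edgeR adjusted p 0.00227) was also called lower. These values are the highest among 15613 genes and rest on 5 points, so r this high can arise by chance. The call of Adgb stands against 3.68% of all genes tested called lower.

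Markers of the testis cell types were measured beside the chains. Their calls stand against 3.68% of all genes tested called lower and 0.826% called higher. Elongating spermatid markers had a median log2 fold change of -0.76, with 1 of 12 called lower, and their summed level was 12059 to 23625 CPM in wild type and 10206 to 13643 CPM in Rfx2-/- testes. When Rfx2-/- replicate 2 was left out, 5 of the 12 were called lower, against 4.01% of all genes tested. The median of these markers was then -0.80 and the highest Rfx2-/- sum was 11013 CPM. Round spermatid markers had a median of -0.03 and meiotic prophase markers of 0.60, with 0 of 8 and 0 of 7 called. Their summed levels were 1005 to 1664 and 820.4 to 1109 CPM in wild type and 1099 to 1732 and 1144 to 2359 CPM in Rfx2-/- testes. Replicate 2 had the highest sum of both lists, and without it the medians were -0.07 and 0.27 and the highest Rfx2-/- sums 1510 and 1364 CPM. Late spermatocyte, spermatogonial, Sertoli, Leydig, peritubular, macrophage and endothelial markers had medians between -0.21 and 0.21, and between -0.02 and 0.17 without replicate 2, with 0 calls. Of 6 markers of multiciliated duct cells 3 were tested and 0 called, with a median of -0.47, and of -0.26 without Rfx2-/- replicate 2. The summed level was 333 to 502 CPM in wild type and 266 to 347 CPM in Rfx2-/- testes. Those tested were Deup1 (-0.84, edgeR adjusted p 0.00439), Foxj1 (-0.47) and Cdhr4 (0.08). Mcidas, a defining regulator of such cells, was at 0 to 0.156 CPM in wild type and 0 to 0.0682 CPM in Rfx2-/- testes. Gmnc, also too low to be tested, was at 0.306 to 0.546 CPM in wild type and 0.0654 to 0.232 CPM in Rfx2-/- testes. With Mcidas and Gmnc this low, the sum and the median of the list cannot be read as an amount of duct cells. Cdhr3 of the same list was at 0.0780 to 0.399 CPM in wild type and 0.535 to 2.73 CPM in Rfx2-/- testes. It was too low to be tested with all libraries, and without Rfx2-/- replicate 2 it was called higher (3.25, edgeR adjusted p 5.10e-05), against 1.04% of all genes. The part of spermatid content in the levels of the heavy chains was not tested.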

How the data were processed

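RNA from decapsulated testes was extracted on silica columns, and libraries were made with the TruSeq protocol. The deposited values are whole-number counts of reads for each gene, which the authors obtained by mapping reads to GRCm38 with STAR and counting uniquely mapped reads over merged exons of protein coding isoforms (the submitters' processing notes name CASAVA 1.8.2, STAR 2.4 and featureCounts 1.4.6). Reads over exons of different genes were left out, and the use of strand is not given in the sources used here. Groups came from the genotype label of each mouse. Genes were named from GENCODE M21 (96.6% of IDs). The 10 chains, the ratios and the gene lists were chosen with earlier results of these data known. Genes named in the text were the 10 chains, Rfx2, the other dynein heavy chains, every called gene of the 3 dynein arm lists, and the 5 genes most like Dnah10 or the mean of the chains. Lyrm1, Mcidas, Gmnc, Deup1, Foxj1, Cdhr3, Cdhr4 and Pih1d3 fall outside this rule and were named after their values were seen. Counts were tested with edgeR 4.0.16 in R 4.3.3 (quasi-likelihood, robust, TMM factors, filterByExpr, genotype as the only factor), with Benjamini-Hochberg adjustment over 15613 genes. Log2 CPM used a prior count of 2. The 2 ratios were tested by exact permutation of the libraries. The edgeR procedure was tested on simulated counts with known fold changes. The simulation held no length or GC pattern, so it did not cover the pattern seen in Rfx2-/- replicate 2. Alternatives were RLE factors, total counts, no filter, DESeq2 1.42.0, limma 3.58.1 voom with quality weights, no robust option, a test against 2-fold, unadjusted p, a lowess trend on exon length removed, Rfx2-/- replicate 1 thinned, and each library left out. Removal of length and GC trends together was added after seeing the data. A floor of 3 counts corresponds to 0.0996 to 0.234 CPM and covers counting error only. Within a genotype no pair of libraries agreed within sampling noise (mean chi-square of at least 4.52 per gene), and each was kept as a replicate.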

Additional observations from a re-analysis of the deposited data

Results flagged for a closer look

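The highest and the lowest library of a genotype were checked by their gap to the next library over the range of the group, in 32 groups of heavy chain levels and ratios. In 3 groups a library lay far from the rest, where chance marks about 1 group in 20. Dnah17 had 1399 CPM in wild type replicate 4, against 1200.8 to 1216 CPM in the other 4 wild type libraries. In Rfx2-/- replicate 2 the level of Dnah5 was 1.81 CPM, while the remaining Rfx2-/- libraries had 5.43 to 5.94 CPM. In Rfx2-/- replicate 1 the level of Dnah11 was 8.20 CPM, while the remaining Rfx2-/- libraries had 0.134 to 1.29 CPM.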

How the results depend on the processing

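Of the 10 chains, 2 were called lower in all alternatives except the test against 2-fold and the omission of Rfx2-/- replicate 4, which each called 1 (range 1 to 2 when a library was left out). Over all genes, the test against 2-fold called 272 lower and 29 higher, DESeq2 called 211 higher and the unadjusted p 262 higher. Leaving out 1 library gave 447 to 632 lower and 92 to 175 higher genes. The log2 fold change of Dnah10 ranged from -4.58 to -3.80 (adjusted p 1.75e-28 to 5.38e-04) and that of Dnah6 from -3.05 to -2.25 (adjusted p 8.44e-10 to 0.0162). Dnah3 reversed to 0.10 without Rfx2-/- replicate 2 (range -0.43 to 0.10 when a library was left out). The Dnah10 to Dnah2 ratio difference ranged from -3.45 to -3.24 when a library was left out, and without any one wild type library its exact p was 0.0286, the smallest that 4 against 4 libraries allow, and 0.0571 after adjustment over the 2 ratios. The Dnah8 to Dnah17 difference ranged from -0.23 to -0.059 and passed 0.05 only without Rfx2-/- replicate 2 (-0.23, exact p 0.0179). The causes of these changes were not tested, apart from the number of libraries that sets the smallest p. Precision is limited by 4 Rfx2-/- libraries and by replicate 2, whose weight in limma voom was 0.101 (0.669 to 3.18 in the others). No paired analysis was possible because the replicate numbers were given in accession order and link no animals.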
